A study of Mus musculus with 8 samples.

Results

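Eukaryotic translation initiation factors (eIFs) bring the ribosome, the initiator tRNA and the mRNA together at the start codon. They were followed here in mouse T cells cultured with dendritic cells of a graft donor strain. All probes whose annotated gene symbol starts with Eif and a digit were taken, by the probe identifiers of the series matrix, which gave 71 of the 25697 probes on the array. They named 47 genes of 16593 with a symbol on the array. Tests took in each probe detected, with a detection p under 0.01, on 2 or more arrays. That held for 58 probes of 38 genes. The other 13 probes were detected on no array, and they left 9 genes without a tested probe: Eif1ax, Eif2ak4, Eif3e, Eif3j1, Eif3m, Eif4e1b, Eif4ebp3, Eif5a2 and Eif5b. Of the 58 tested probes, 56 were detected on all 8 arrays, so the filter did not choose them through either fraction. The exceptions were a dimmer probe of Eif3b and a dimmer probe of Eif4g2.

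The cells came from spleen and lymph nodes of male C57BL/6 mice in 4 recipient states. Naive mice had no graft. Rejecting mice were untreated recipients of BDF1 tail skin (C57BL/6 crossed with DBA/2), taken on day 7. Early tolerant mice, on day 21, and tolerant mice, on day 100, had received the same graft together with donor specific transfusion and MR-1, an antibody to CD40L. All cells shared a culture of 20 to 21 hours with bone-marrow dendritic cells of the donor strain, and were then sorted into CD69+ and CD69- fractions. CD69 is a surface protein that appears soon after a T cell has been stimulated. Each state and fraction had 1 array, and the sources used here do not say how many mice stood behind an array. Recipient states could therefore be described but not tested.

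In the cell, eIF1 and eIF1A keep the small ribosomal subunit open while it scans, and eIF2 carries the initiator tRNA as a complex with GTP. The exchange factor eIF2B recharges eIF2, and 4 kinases shut that step down under stress by phosphorylating the alpha subunit of eIF2. The multi-subunit factor eIF3 holds the small subunit, and eIF4F, made of the cap-binding protein eIF4E, the helicase eIF4A and the scaffold eIF4G, recruits the mRNA. Proteins that bind eIF4E block that step until the kinase mTOR phosphorylates them. T cells that leave rest are known to raise protein synthesis before they divide.

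The arrays detected 9593 to 10308 probes each (37.3% to 40.1%), and before normalization the CD69+ array of each state was the brighter. Markers of dendritic and myeloid cells moved with the fraction: of 21 tested, 19 rose in CD69+ cells and none fell. Over all tested probes 34.9% rose and 37.6% fell in the same comparison. Ciita, Ccl22 and Tyrobp were detected only on the early tolerant and tolerant CD69+ arrays. Of the 21 markers, 15 to 21 were detected on a CD69+ array and 13 to 15 on a CD69- array, so the filter partly set the count of rises. The summed normalized intensity of these markers was 14170 to 64557 in the CD69+ and 12221 to 16493 in the CD69- arrays. Itgax, Itgam and Flt3, which define dendritic or myeloid cells, had 1 probe each and were detected on no array. All 13 tested pan-T markers were detected on every array, and of these 1 rose and 10 fell in CD69+ cells. From the same list Lck was not named on the array. Cd8a was not detected on 2 arrays, while Cd8b1 measured 48550.5 to 49152.4 in CD69- cells. What an undetected probe says about the presence of a cell type was not tested. Only 1 B cell gene, 1 red cell gene and 3 NK cell genes could be tested, of which 0, 0 and 1 rose and 1, 1 and 2 fell. The red cell gene, Hba-a1, was detected only on the naive and early tolerant CD69- arrays, so it passed the filter through that fraction. The NK cell genes tested were Klrd1, Prf1 and Xcl1, while Ncr1, Klrb1c and Gzma were not detected on 2 arrays. The part of other cells, and of RNA content per cell, in the differences below was not tested. The rejecting pair stood apart in these markers, with summed dendritic and myeloid intensities of 14170 and 12221 and a median log2 difference of 0.54, against 1.57 to 2.46 in the other pairs. Single markers still differed widely there, such as the costimulatory genes Cd80 by 3.00 and Cd40 by 2.12. In rejecting CD69- cells Cd40 measured 47.9, below that array's lowest detected intensity of 80.0, and Cd80 measured 88.9, close to it. The sizes of these 2 differences are therefore uncertain.

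The first comparison asked which initiation factors differed between the CD69+ and CD69- cells sorted after culture. It used limma's linear model with recipient state as a block over 4 pairs, and the Benjamini-Hochberg adjustment ran over 10849 probes. Of the 58 tested initiation factor probes, 33 rose in CD69+ cells (56.9%) and 10 fell (17.2%). Over all tested probes 34.9% rose and 37.6% fell. In all, 43 of the 58 passed (74.1%), near the background of 72.6%, so passing as such was no feature of the factors. Their median log2 difference was 0.50, against -0.04 over all tested probes. By the brightest probe of each gene, 21 of 38 genes rose, 9 fell and 8 did not pass. The 4 CD69+ and 4 CD69- arrays did not overlap for 44 of the 58 probes (75.9%), against 65.0% of all tested probes. A rise of at least 2-fold was seen for 13 of the 58 probes and a fall of at least 2-fold for 3, against 16.8% and 16.3% of all tested probes. By the brightest probe these were 7 and 2 of the 38 genes, since several of the probes shared a gene.

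**Figure D1:**
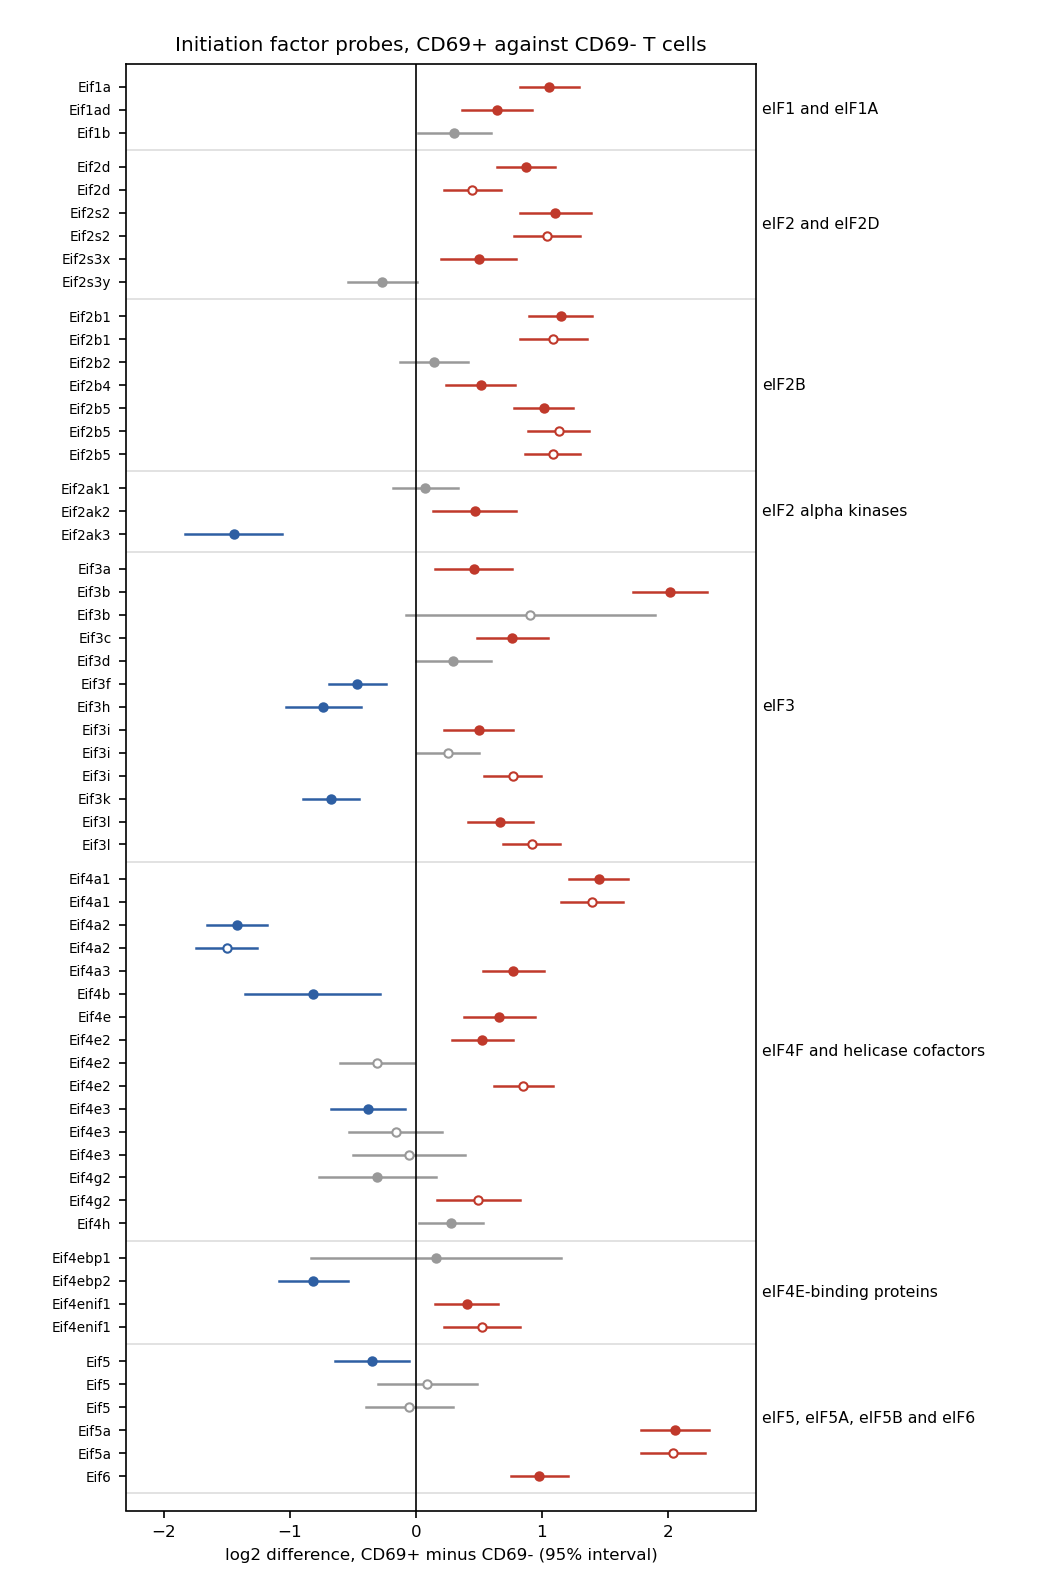
Log2 differences between CD69+ and CD69- cells (x axis, with 95% intervals from limma, 4 pairs) for the 58 tested initiation factor probes, grouped by complex. Red probes rose, blue probes fell and grey probes did not pass at an adjusted p of 0.05; filled points are the brightest probe of a gene. Both probes of Eif5a and 1 of 2 probes of Eif3b lie near 2, while both probes of Eif4a2 and the probe of Eif2ak3 lie near -1.5.

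Eif5a and Eif3b gave the largest rises among the initiation factors. They differed from each other by less than their standard errors, and Eif3b was the higher with median centring (2.13 against 2.12), without the rejecting pair (2.12 against 2.07) and without the early tolerant pair (2.05 against 1.99). The product of Eif5a, the only protein known to carry the modified amino acid hypusine, is now known mainly to help ribosomes elongate and terminate. In CD69+ cells the normalized intensity of Eif5a was 22833 in naive, 18785 in rejecting, 21927 in early tolerant and 16485 in tolerant mice. In CD69- cells it was 5171, 4584, 4545 and 4771 in the same order. Every CD69+ array lay far above every CD69- array. The fold difference was 4.17 (log2 2.06, SE 0.11, 95% interval 1.79 to 2.33, adjusted p = 1.61e-05 in limma), and a second probe gave 2.04 on the log2 scale. The differences in the 4 pairs were 2.14 in naive, 2.03 in rejecting, 2.27 in early tolerant and 1.79 in tolerant mice. Its paralog Eif5a2 was detected on no array.

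Factors of the subunit joining step followed no common direction. Eif6, which keeps the large ribosomal subunit from joining too early, lay at intensities of 8307 to 10489 in the CD69+ arrays, above the 3945 to 5334 of the CD69- arrays, and rose by 0.98 (SE 0.09, adjusted p = 0.000121 in limma). Eif5, which triggers GTP hydrolysis by eIF2, fell by 0.35 on its brightest probe (adjusted p = 0.0371 in limma). Its other 2 probes had differences of 0.09 and -0.05 and did not pass, and the call on the brightest probe was lost without the naive (adjusted p = 0.0582), the rejecting (0.112) or the tolerant pair (0.124). It was also lost with median centring of the arrays (0.192) and without a filter on dim probes (0.0550). Both probes of Eif5b, the factor that joins the ribosomal subunits, were detected on no array.

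Among the scanning factors, Eif1a rose 2.08-fold (log2 1.06, SE 0.10, adjusted p = 0.0001 in limma). In CD69+ cells it measured 3167 in naive, 2814 in rejecting, 3204 in early tolerant and 2277 in tolerant mice, and 1427, 1296, 1531 and 1220 in CD69- cells. The fractions did not overlap. Eif1ad, which carries an eIF1A-like domain, rose by 0.64 (adjusted p = 0.00214). Eif1b, a copy of the start-codon selecting factor eIF1, had a difference of 0.31 and did not pass (adjusted p = 0.0552), although it was higher in CD69+ cells of all 4 pairs. It passed on the deposited values (0.0317), with median centring (0.0163) and without the block (0.0289).

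Subunits of eIF2 and its exchange factor rose in CD69+ cells with the exceptions of Eif2s3y and Eif2b2. Eif2s2, the beta subunit of eIF2, measured 2544, 1697, 2057 and 2015 in CD69+ cells of naive, rejecting, early tolerant and tolerant mice. In CD69- cells it measured 951, 910, 1019 and 945, so the fractions were well apart. It rose 2.15-fold (log2 1.11, SE 0.12, adjusted p = 0.000182 in limma) and by 1.04 on a second probe. The gamma subunit has an X-linked gene, Eif2s3x, and a Y-linked copy, Eif2s3y. Eif2s3x rose by 0.50 (SE 0.13, adjusted p = 0.01). Eif2s3y had a difference of -0.27 (SE 0.11, 95% interval -0.54 to 0.01, adjusted p = 0.0723) and was lower in CD69+ cells of all 4 pairs. It passed on the deposited values (adjusted p = 0.0495) and without the block (0.0418). The difference between the copies was not tested. Eif2d, which can bring the initiator tRNA without eIF2, rose by 0.87 and by 0.45 on its 2 probes. The alpha subunit gene, Eif2s1, was not analysed here.

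The exchange factor eIF2B has 5 kinds of subunit, of which 4 were measured. Eif2b5, the catalytic epsilon subunit, had intensities of 4794, 4206, 4026 and 4557 in CD69+ cells in the order naive, rejecting, early tolerant and tolerant, and of 2300, 2200, 2166 and 2032 in CD69- cells. Its differences over the states were close to each other. It rose 2.02-fold (log2 1.01, SE 0.10, adjusted p = 0.000128 in limma), and its other 2 probes gave 1.13 and 1.09. The alpha subunit gene Eif2b1 measured 2704, 2321, 2389 and 2152 in CD69+ against 1099, 1212, 1010 and 991 in CD69- cells. It rose 2.22-fold (log2 1.15, SE 0.10, adjusted p = 9.64e-05), and by 1.09 on its second probe. Eif2b4, the delta subunit, rose by 0.51 (adjusted p = 0.00594). Eif2b2, the beta subunit, had a difference of 0.15 with a 95% interval of -0.13 to 0.42 and did not pass (adjusted p = 0.281).

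The kinases that act on eIF2 went different ways. Eif2ak3, the endoplasmic reticulum stress sensor PERK, measured 119 in naive, 227 in rejecting, 126 in early tolerant and 128 in tolerant CD69+ cells. In CD69- cells it measured 348, 433, 336 and 477. No CD69+ array reached the lowest CD69- array. Eif2ak3 was 2.73-fold lower in CD69+ cells (log2 -1.45, SE 0.16, 95% interval -1.83 to -1.06, adjusted p = 0.000226 in limma). The signals were dim, above array detection limits of 62.7 to 80.0, where the offset of the normalization makes a fold smaller than it was. Eif2ak2, the interferon-induced kinase PKR that senses double-stranded RNA, rose by 0.47 (adjusted p = 0.0188). Its difference was 0.05 in the rejecting pair and 0.46 to 0.78 in the others. Its call was lost without the naive (adjusted p = 0.0603), the early tolerant (0.0777) or the tolerant pair (0.0624). Eif2ak1, the heme-regulated kinase, had a difference of 0.07 with a 95% interval of -0.18 to 0.33 (adjusted p = 0.554). Eif2ak4, the amino acid sensor GCN2, was detected on no array by its probe.

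Subunits of eIF3 did not move together. Of 9 genes with a tested probe, 5 rose (55.6%), 3 fell (33.3%) and Eif3d did not pass. Over all tested probes 34.9% rose and 37.6% fell, so calls in both directions were no feature of eIF3 as such. Eif3b, a scaffold subunit, measured 3549, 2844, 2890 and 3358 in CD69+ cells of naive, rejecting, early tolerant and tolerant mice, and 761, 866.5, 764 and 721.5 in CD69- cells. Its CD69+ arrays lay far above its CD69- arrays. Its fold difference was 4.05 (log2 2.02, SE 0.12, 95% interval 1.73 to 2.31, adjusted p = 2.17e-05 in limma). A dimmer probe of Eif3b measured 244.5, 180, 348 and 75.4 in CD69+ and 101.5, 128, 67.8 and 105 in CD69- cells, the value of 67.8 being below detection. That probe did not pass (log2 0.91, SE 0.41, adjusted p = 0.0859), and its tolerant pair pointed down, by 0.48.

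Other eIF3 subunits rose less. Eif3c, a core subunit, rose by 0.77 (adjusted p = 0.00109), and Eif3l by 0.67 and 0.92 on its 2 probes. Eif3i, which sits with Eif3b in a mobile module, rose by 0.50 and 0.77 on 2 probes, while its remaining probe missed the threshold at 0.26 (adjusted p = 0.0584). Eif3a, the largest subunit, rose by 0.46 (adjusted p = 0.0153). The adjusted p of Eif3a was 0.0714 without the naive and 0.0562 without the tolerant pair. Eif3d, which can bind the mRNA cap, had a difference of 0.30 (SE 0.13) and did not pass (adjusted p = 0.0681). It passed on the deposited values (0.0394), with median centring (0.0407), without the block (0.0386) and without the rejecting pair (0.0345).

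Eif3f, Eif3h and Eif3k fell in CD69+ cells. Eif3f was among the brightest probes, with 39226, 43825, 40147 and 38908 in CD69+ cells of naive, rejecting, early tolerant and tolerant mice and 56047, 55597, 55399 and 56193 in CD69- cells. All 4 CD69- arrays were within a narrow range and above the CD69+ arrays. It fell by 0.46 (SE 0.09, adjusted p = 0.00391 in limma). Eif3k ranged from 2800 to 3104 in CD69+ cells, below its range of 4436 to 5053 in CD69- cells, and fell by 0.67 (SE 0.09, adjusted p = 0.000661). Eif3h fell by 0.74 (SE 0.12, adjusted p = 0.00166), with dim signals that ranged from 96.1 to 149 in CD69+ cells and from 207 to 226 in CD69- ones. Probes of Eif3e and Eif3m were detected on no array.

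**Figure D2:**
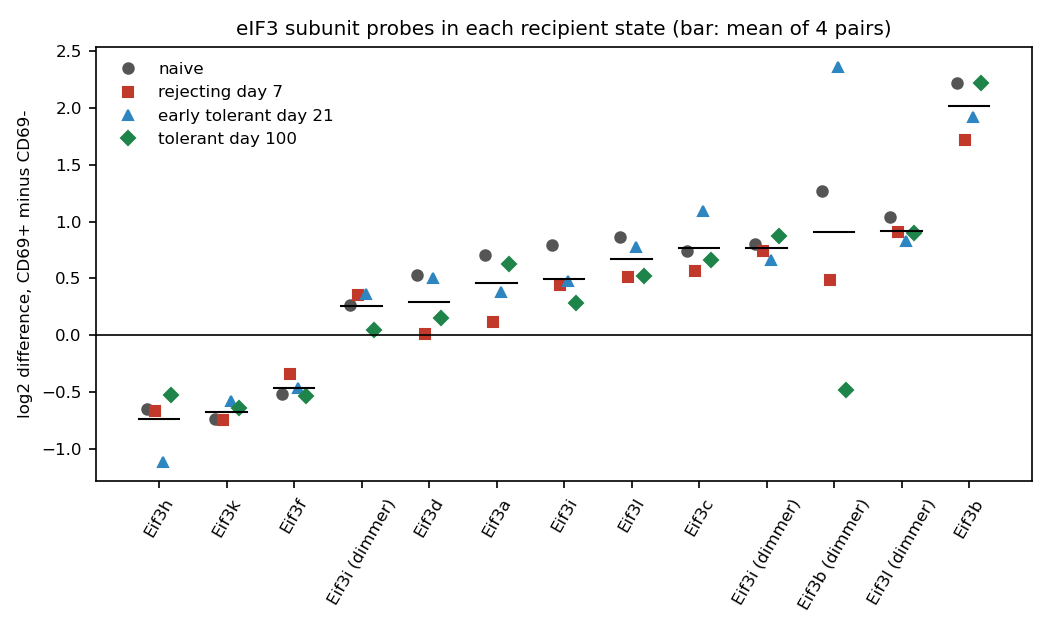
Log2 difference between CD69+ and CD69- cells (y axis) in each of the 4 recipient states for the 13 tested probes of eIF3 subunits, ordered by their mean (black bar). Eif3h, Eif3k and Eif3f are below 0 in every state, the brightest Eif3b probe is between 1.71 and 2.22, and the dimmer Eif3b probe ranges from -0.48 in tolerant to 2.36 in early tolerant mice.

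A pair of near-identical helicases went opposite ways. Eif4a1 and Eif4a2 encode copies of eIF4A, the helicase that unwinds the mRNA leader. Eif4a1 measured 33804, 26973, 33576 and 30270 in CD69+ cells of naive, rejecting, early tolerant and tolerant mice, and 11768, 10749, 11230 and 11671 in CD69- cells. Eif4a2 measured 5520, 6820, 6359 and 6370 in CD69+ and 15605, 17906, 15250 and 18289 in CD69- cells. Neither gene's fractions overlapped, and both differences had the same sign in all 4 states. Eif4a1 rose 2.73-fold (log2 1.45, SE 0.10, adjusted p = 3.07e-05 in limma) and 2.64-fold on its second probe. Eif4a2 was 2.67-fold lower (log2 -1.42, SE 0.10, adjusted p = 3.3e-05) and 2.83-fold lower on its second probe. The sequences of the probes were not used here, so signal shared between the copies was not tested. Eif4a3, a related helicase of the exon junction complex, rose by 0.77 (adjusted p = 0.000499).

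The promoters of these copies are shown because the genes moved in opposite directions, and those of Eif4e, Eif5a, Eif3f and Eif3k, which rose or fell, because they hold the E-box CACGTG, a palindrome bound by Myc and related factors. Each line gives the 250 bases before a RefSeq transcript start (GRCm38.p6, in the direction of the gene), with CACGTG in capitals. The stretches are chr11:69672424-69672673 (minus strand) for Eif4a1, chr16:23107218-23107467 (plus) for Eif4a2, chr3:138527018-138527267 (plus) for Eif4e, chr11:69921387-69921636 (minus) for Eif5a, chr7:108934165-108934414 (plus) for Eif3f and chr7:28981889-28982138 (minus) for Eif3k. Where a gene had several windows, the one with the motif nearest the start was taken.
Eif4a1: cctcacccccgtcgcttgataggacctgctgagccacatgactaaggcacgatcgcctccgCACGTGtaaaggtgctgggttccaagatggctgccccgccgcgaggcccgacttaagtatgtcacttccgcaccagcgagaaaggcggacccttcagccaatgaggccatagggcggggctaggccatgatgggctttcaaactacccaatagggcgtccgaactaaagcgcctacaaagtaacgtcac
Eif4a2: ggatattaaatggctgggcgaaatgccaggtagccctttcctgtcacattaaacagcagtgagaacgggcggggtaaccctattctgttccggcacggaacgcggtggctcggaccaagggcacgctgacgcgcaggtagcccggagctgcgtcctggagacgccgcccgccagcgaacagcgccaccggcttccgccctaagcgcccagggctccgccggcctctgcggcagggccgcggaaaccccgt
Eif4e: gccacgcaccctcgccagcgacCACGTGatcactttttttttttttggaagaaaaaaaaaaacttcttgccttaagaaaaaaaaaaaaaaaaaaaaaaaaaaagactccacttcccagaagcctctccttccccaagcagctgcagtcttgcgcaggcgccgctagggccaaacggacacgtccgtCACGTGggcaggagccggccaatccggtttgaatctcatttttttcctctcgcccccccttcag
Eif5a: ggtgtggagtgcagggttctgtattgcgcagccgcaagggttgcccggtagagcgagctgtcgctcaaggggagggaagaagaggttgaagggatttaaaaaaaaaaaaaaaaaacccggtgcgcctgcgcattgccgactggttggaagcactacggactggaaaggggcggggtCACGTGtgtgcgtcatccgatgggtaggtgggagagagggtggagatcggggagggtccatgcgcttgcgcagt
Eif3f: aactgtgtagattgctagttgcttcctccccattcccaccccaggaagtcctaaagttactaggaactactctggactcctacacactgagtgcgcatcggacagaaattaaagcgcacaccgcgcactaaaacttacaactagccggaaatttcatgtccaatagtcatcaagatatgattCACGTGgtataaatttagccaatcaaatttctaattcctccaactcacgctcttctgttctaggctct
Eif3k: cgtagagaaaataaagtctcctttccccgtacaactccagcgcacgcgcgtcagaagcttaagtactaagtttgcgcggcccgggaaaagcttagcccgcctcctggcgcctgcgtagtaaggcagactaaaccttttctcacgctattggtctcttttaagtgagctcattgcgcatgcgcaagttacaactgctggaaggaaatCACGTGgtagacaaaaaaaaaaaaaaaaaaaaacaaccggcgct

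The motif began 189 bases before the start in Eif4a1, 228 and 64 bases before it in Eif4e, 74 in Eif5a, 68 in Eif3f and 44 in Eif3k, and the Eif4a2 window did not hold these letters. Promoter windows, from 250 bases before to 50 after the start, were matched by symbol for 37 of the 47 genes. CACGTG was found in the windows of 9 of the 37 genes (24.3%), against 8.09% of the 27025 genes with a window. By call, the windows of 4 of 18 genes that rose, 2 of 7 that fell, 2 of 6 that did not pass and 1 of 6 not tested held it. The letters CCGGAAGT, known from ETS factors, read on both strands, were in the windows of 8 of the 37 genes (21.6%, against 4.31% of all genes), and the palindromic NRF1 motif was in 1, that of Eif3k. In the printed stretches no CACGTG overlapped another of these motifs. A match of letters does not show that a factor was bound.

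Further parts of the cap-binding machinery moved by less than 2-fold. Eif4e, the cap-binding protein, was dim on its probe, at 189, 146.5, 206 and 166 in CD69+ cells of naive, rejecting, early tolerant and tolerant mice and 118, 108, 106 and 111 in CD69- cells. The fractions did not overlap, and Eif4e rose by 0.66 (SE 0.12, adjusted p = 0.00198 in limma). Eif4e2, a cap-binding relative linked to translational repression, rose by 0.53 and 0.85 on 2 probes and had a difference of -0.31 on its remaining probe (adjusted p = 0.0557). That probe correlated with another probe of Eif4e2 by as low as -0.65 over the 8 arrays. Eif4e3, a further relative, fell by 0.38 on its brightest probe (adjusted p = 0.027), while its other 2 probes, at -0.16 and -0.05, did not pass. The call on the brightest was lost without the naive (adjusted p = 0.114), early tolerant (0.0975) or tolerant pair (0.0665), with median centring (0.107) and without the block (0.0720).

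The helicase partners of eIF4A did not move alike. Eif4b, which stimulates eIF4A, measured 880, 785, 1219 and 506 in CD69+ cells of naive, rejecting, early tolerant and tolerant mice and 1534, 1411, 1280 and 1490 in CD69- cells. The early tolerant arrays were nearly level and the tolerant ones far apart, with differences of -0.07 and -1.56. Eif4b fell by 0.82 on average (SE 0.22, 95% interval -1.35 to -0.29, adjusted p = 0.0139 in limma). Eif4h, a smaller relative of Eif4b, had a difference of 0.28 (95% interval 0.02 to 0.54) and an adjusted p of 0.0503, with CD69- arrays at 12505 to 14400 and CD69+ arrays at 15457 to 17783. It passed on the deposited values (0.0262), with median centring (0.0151), without the block (0.0210), with detection on 4 arrays (0.0459), with 1 probe per gene (0.0456) and without the rejecting pair (0.0445). Eif4g2, which encodes the scaffold DAP5 used without eIF4E, had -0.31 on its brightest probe (adjusted p = 0.196) and rose by 0.50 on a dimmer probe that was detected on 1 of 4 CD69- arrays. The scaffold genes Eif4g1 and Eif4g3 were not analysed here.

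Genes of the eIF4E-binding proteins split. Eif4ebp2 measured 737, 704, 735 and 773 in CD69+ cells of naive, rejecting, early tolerant and tolerant mice and 1302, 1264, 1523 and 1122 in CD69- cells. It was lower in every CD69+ array than in any CD69- array, and fell by 0.81 (SE 0.11, adjusted p = 0.000686 in limma). Eif4enif1, a transporter that carries eIF4E into the nucleus, rose by 0.40 and 0.53 on its 2 probes. Its adjusted p on the brighter probe was 0.0112, or 0.0574 without the naive pair. Eif4ebp3 was detected on no array.

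Eif4ebp1, the mTOR target 4E-BP1, had no common direction. In CD69+ cells it measured 3835 in naive, 6010 in rejecting, 3015 in early tolerant and 2463 in tolerant mice, and in CD69- cells 4545, 1628, 3181 and 4669. The rejecting mice held both the highest and the lowest array of the 8. The fractions differed by 1.88 in rejecting mice, and by -0.24, -0.08 and -0.92 in naive, early tolerant and tolerant ones. Over the 4 pairs the log2 difference was 0.16 (SE 0.42, 95% interval -0.83 to 1.15, adjusted p = 0.743 in limma), and it was -0.41 without the rejecting pair.

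**Figure D3:**
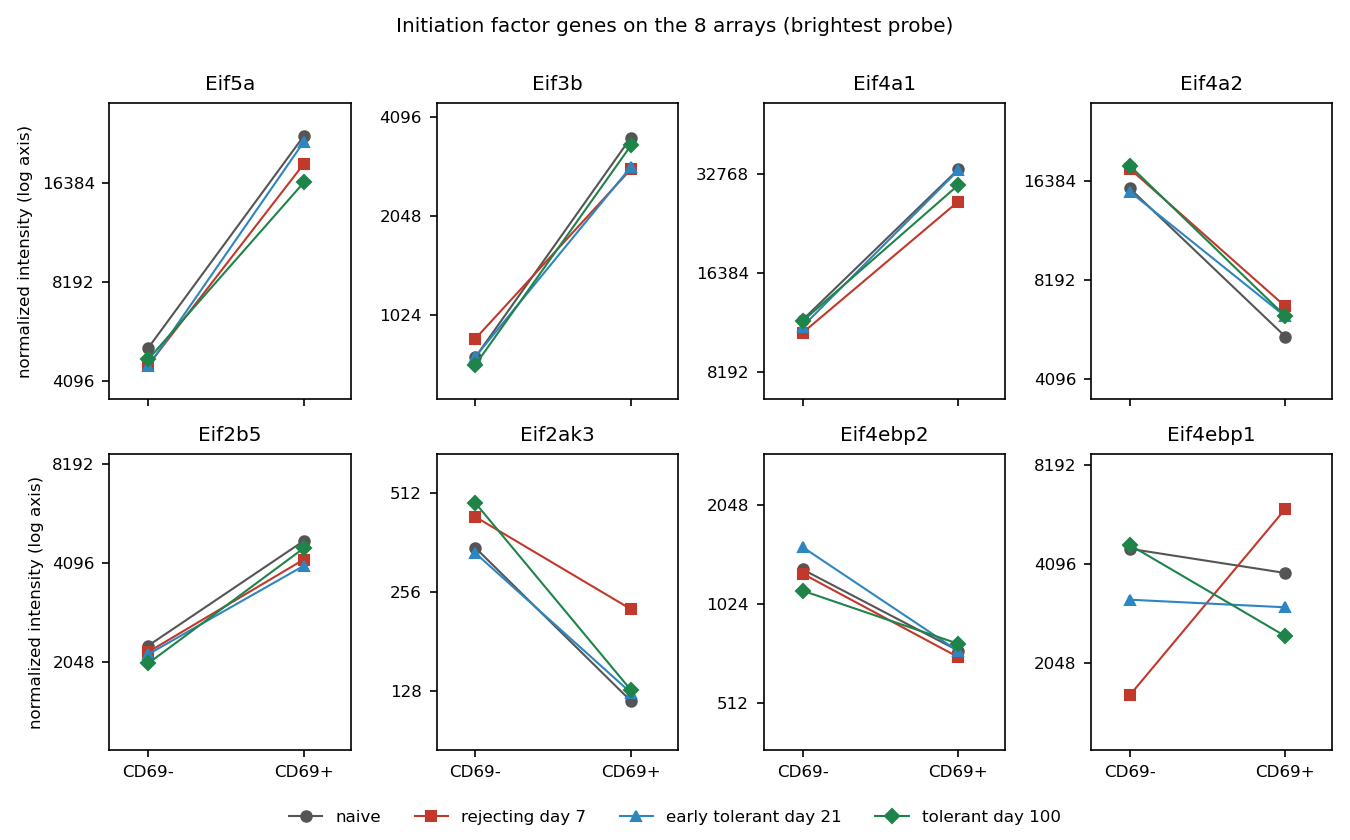
Normalized intensity (log y axis) of the brightest probe of 8 genes in CD69- and CD69+ cells, with a line joining the 2 arrays of each recipient state. Lines run upward in all 4 states for Eif5a, Eif3b, Eif4a1 and Eif2b5 and downward for Eif4a2, Eif2ak3 and Eif4ebp2, while Eif4ebp1 runs from 1628 to 6010 in rejecting mice and downward in the others.

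Probes of the same gene were compared, since they share a target and are not separate evidence. For 15 genes more than 1 probe was tested. Calls disagreed within 6 of them, namely Eif3b, Eif3i, Eif4e2, Eif4e3, Eif4g2 and Eif5. On the log2 scale the probes differed by 0.02 for Eif5a, 0.05 for Eif4a1, 0.08 for Eif4a2, 0.06 for Eif2b1 and for Eif2s2, and 0.12 for Eif2b5. The calls above a 2-fold change therefore held on every tested probe of these genes, and on 1 of 2 probes of Eif3b, while Eif1a and Eif2ak3 had 1 probe each.

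Lists of other translation genes gave the setting. Of 8 tested genes of elongation and termination, 5 rose and 2 fell, where 34.9% of all tested probes rose and 37.6% fell. Their median log2 difference was 0.50, against -0.04 for all tested probes. Eef1e1, whose product belongs to the aminoacyl-tRNA synthetase complex, rose by 2.02, and the release factor genes Gspt1 and Etf1 rose by 0.93 and 0.82. Eef2, which moves the ribosome along the mRNA, fell by 0.95 and Eef1b2 by 0.35. Eef1a1 was not detected on 2 arrays and was not tested.

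Regulators and accessory factors of initiation went both ways: 10 of 23 rose and 9 fell (median -0.09), near the 34.9% and 37.6% of all tested probes. Pabpc4, a poly(A)-binding protein, rose by 2.35, Myc by 1.85 and the scanning helicase gene Dhx29 by 1.41. Pdcd4, which encodes an inhibitor of eIF4A, fell by 1.88, Impact, an inhibitor of the kinase GCN2, by 1.82, and Ddit3, the stress factor CHOP, by 1.62. Atf4 and Ppp1r15a, which respond to eIF2 phosphorylation and were chosen after their values were seen, went apart. Atf4 rose by 0.74 and Ppp1r15a, which recruits the eIF2 phosphatase, fell by 1.46. Initiation factor mRNAs known to carry a terminal oligopyrimidine tract, which mTOR controls at the level of translation, were a list of 4. The 3 tested, Eif3f, Eif3h and Eif4b, fell (median -0.74), where 37.6% of all tested probes fell, and Eif3e was not detected. This list was chosen with earlier results of these data known, so the count is no independent evidence of a direction.

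The next comparisons asked how recipients differed from naive mice within a fraction. They had 1 array a side and shared the naive array, so values are given with no test. A change of at least 1.5-fold, a size the study used in choosing genes, was counted over the initiation factor probes. In CD69+ cells it was met by 2 of 58 in rejecting (3.45%), 1 in early tolerant (1.72%) and 4 in tolerant mice (6.90%), where 12.3%, 8.54% and 12.1% of all tested probes met it. In CD69- cells it was met by 1, 0 and 1 in the same order, against 8.61%, 4.60% and 6.37% of all tested probes. The counts and shares depended on the processing. On the deposited values 2 (3.45%), 0 and 4 (6.90%) met it in CD69+ cells of rejecting, early tolerant and tolerant mice. Of all tested probes 6.24%, 3.46% and 6.17% then met it, so the share in tolerant mice was not below that of all probes. With each array centred on its median the counts were 4 (6.90%), 17 (29.3%) and 7 (12.1%) in the same order, against 13.8%, 16.8% and 13.6% of all tested probes. That centring moved the median of all tested probes in early tolerant CD69+ cells from -0.02 to -0.28, and that of the initiation factor probes from -0.08 to -0.39. Median log2 differences from naive in the main setting were -0.14, -0.08 and -0.16 in CD69+ cells of rejecting, early tolerant and tolerant mice, and 0.05, -0.07 and -0.04 in CD69- cells. Dendritic and myeloid markers had medians of -1.20, 1.14 and 1.44 in the same CD69+ comparisons, and their part in these values was not tested.

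In rejecting CD69+ cells Eif2ak3 and Eif4ebp1 were the only initiation factor probes at least 1.5-fold from naive cells, a smaller share than the 12.3% of all tested probes. Eif2ak3, at 227 against 119 in naive cells, had a log2 difference of 0.93, beside 0.08 in early tolerant and 0.11 in tolerant mice. In CD69- cells its differences from naive were 0.31, -0.05 and 0.45 in the order rejecting, early tolerant and tolerant. Eif4ebp1 had 0.65 in rejecting, -0.35 in early tolerant and -0.64 in tolerant CD69+ cells. In CD69- cells it had -1.48, -0.51 and 0.04, so that it was 2.79-fold lower in rejecting than in naive cells. No other CD69- probe in rejecting mice met the 1.5-fold change.

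Tolerant CD69+ cells were lower than naive ones for Eif4b, Eif4g2, Eif4ebp1 and the dimmer probe of Eif3b. The brightest Eif3b probe had a difference of only -0.08. The dimmer Eif3b probe measured 75.4 in tolerant CD69+ cells, near that array's lowest detected intensity of 69.1. For Eif4b the log2 difference was -0.80 in tolerant CD69+ cells, against 0.47 in early tolerant and -0.16 in rejecting ones. Eif4g2 measured 1154 in tolerant CD69+ cells against 1993 in naive, 1908 in rejecting and 2678 in early tolerant ones, and 2090 to 2444 in CD69- cells. This brightest probe had its lowest level in tolerant CD69+ cells, with a difference from naive of -0.79. The dimmer Eif4g2 probe did not share it, with 93.0 in tolerant and 92.2 in naive CD69+ cells (a difference of 0.01), and the 2 probes correlated by -0.32 over the 8 arrays. In CD69- cells Eif4b and Eif4g2 of tolerant mice differed from naive by -0.04 and 0.08. Eif4e3 on its dimmest probe had -0.67 in early tolerant CD69+ and -0.69 in tolerant CD69- cells.

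Between rejecting and tolerant CD69+ cells, 8 of 58 probes (13.8%) were at least 1.5-fold higher in rejecting cells and none lower, against 8.59% and 7.76% of all tested probes. By the brightest probe this was 5 of 38 genes, namely Eif2ak3, Eif4ebp1, Eif4b, Eif4g2 and Eif4e3, since all 3 Eif4e3 probes were among the 8. The remaining probe was the dimmer Eif3b probe, at 1.25, while the brightest Eif3b probe had -0.24. Eif4ebp1 had the largest difference, at 1.29. In CD69- cells 2 of 58 probes met the 1.5-fold change (3.45%, against 10.5% of all tested probes): Eif2ak2 was higher in rejecting cells by 0.62, and Eif4ebp1 had a difference of -1.52. Dendritic and myeloid markers had median log2 differences between rejecting and tolerant mice of -2.64 in CD69+ and -0.65 in CD69- cells. Their part in the differences of this paragraph was not tested.

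**Figure D4:**
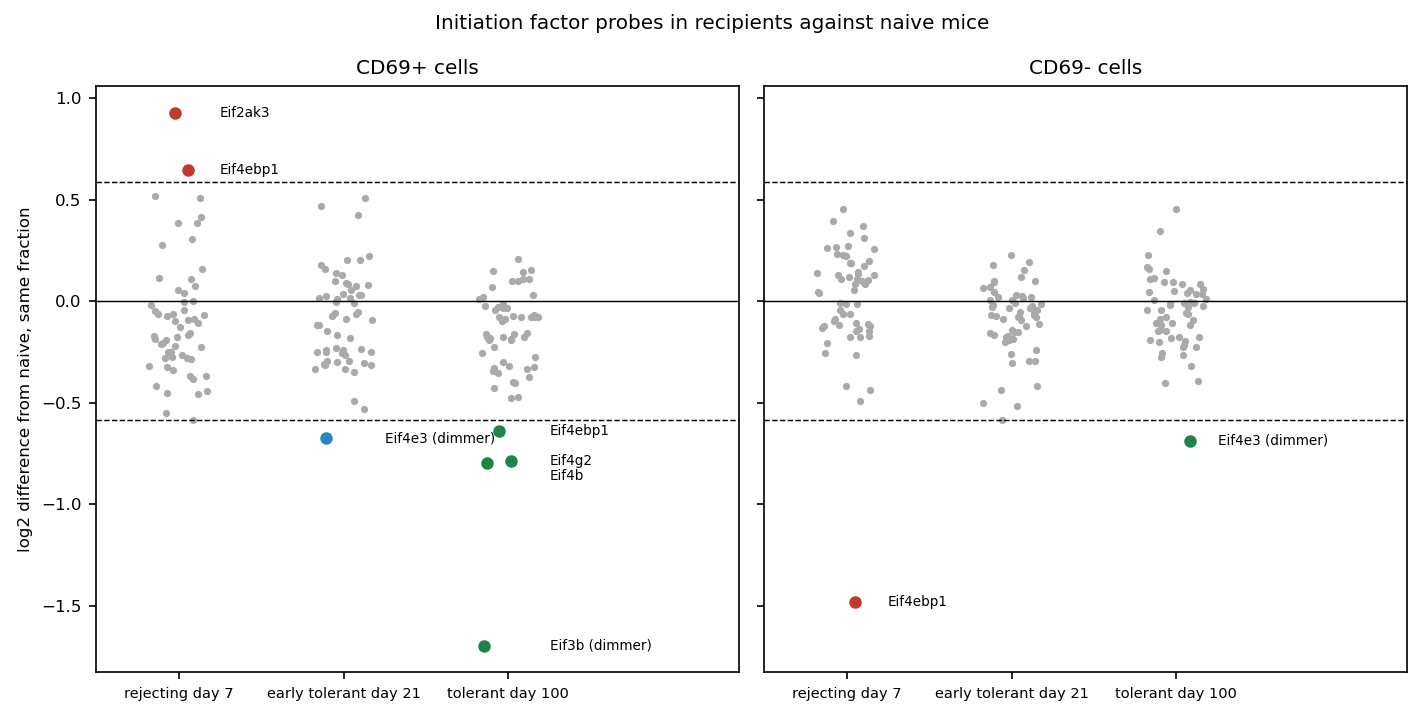
Log2 difference of each of the 58 tested probes from naive mice (y axis) in the same fraction, for CD69+ cells (left) and CD69- cells (right), with 1 array a side. Dashed lines mark a 1.5-fold difference and coloured points lie beyond it. Most probes stay within the lines, and the farthest are the dimmer Eif3b probe at -1.70 in tolerant CD69+ cells and Eif4ebp1 at -1.48 in rejecting CD69- cells.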

How the data were processed

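Total RNA of CD69+ and CD69- T cells from 4 recipient states was measured on 8 Illumina MouseRef-8 arrays, 1 per group. The fraction was taken from the sample titles, since both fractions are written as CD69+ in the sorting protocol. The deposited files hold, per the file headers, non-normalized probe intensity values with a detection p-value for each probe and array, made with BeadStudio 3.1.3 (per the submitters' processing notes), and a table of normalized intensity values. The latter equals quantile normalization of the former, as its columns share the same sorted values. Of the 25697 probes, 20106 (78.2%) carried another identifier in the non-normalized table. Probes were therefore matched between the tables by their exact ranks, 1 to 1 for all 25697, and named by the normalized table and the platform annotation. It gave a single symbol to 23978 probes and none to 1719, and 23962 were matched to RefSeq by Entrez number.

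Intensities were background-corrected and quantile normalized with neqc of limma 3.58.1 in R 4.3.3, with an offset of 16. The detection p-values stood in for negative control probes. Intensities in the text are these values on the linear scale, offset included. Probes detected (p under 0.01) on at least 2 of 8 arrays, 10849 in all, were fitted with lmFit and eBayes on fraction with state as a block, with 2-sided p-values, Benjamini-Hochberg adjustment and a threshold of 0.05. With 1 array per group, the 4 states stand in for replicates, and p-values measure the spread of the fraction difference over states. The pairing by state is taken from the series' design text, in which cultured cells were separated into both fractions. Whether a state had a single culture is not said. Deviations of the 2 arrays of a state correlated by 0.264 in naive, 0.338 in rejecting, 0.170 in early tolerant and 0.295 in tolerant mice. State comparisons, with 1 array a side, have no test. Precision is limited by the number of arrays. The fit was tested on simulated data in which only a small part of the probes changed. In the real data 72.6% of tested probes passed, so the simulation does not bear on these calls.

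The members and the lists (eIF3 core, terminal oligopyrimidine initiation factors, elongation and termination, regulators and accessory factors, and markers of dendritic and myeloid, T, B, red and NK cells) were chosen with earlier results of these data known. Of the eIF3 core list, 4 of 7 tested genes rose and 3 fell, where 34.9% of all tested probes rose and 37.6% fell. Values on all arrays are given for genes that passed with a 2-fold change, for the regulated members of each complex and for genes 1.5-fold from naive mice in CD69+ cells. Of other lists, the 3 largest rises and falls that passed are named. A gene with several probes is given by its brightest, and probes that disagreed are given too. Alternatives were the deposited normalized values, quantile normalization without background correction, median centring, no filter or detection on 4 arrays, 1 probe per gene, no block, each pair left out, and the identifiers printed in the non-normalized table.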

Additional observations from a re-analysis of the deposited data

Results flagged for a closer look

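Eif4ebp1 was the only one of the 58 tested initiation factor probes whose CD69+ array exceeded its CD69- partner by 1.5-fold or more in a recipient state and fell short of it by 1.5-fold or more in another. Its log2 difference between CD69+ and CD69- cells was 1.88 in rejecting and -0.92 in tolerant mice. With 1 pair per state, the difference between the states was not tested. No tested initiation factor probe had a state whose pair difference lay apart from the other 3 by Dixon's 95% criterion.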

How the results depend on the processing

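Of the 58 tested probes, 33 rose and 10 fell, and leaving out each pair gave 30 to 35 and 8 to 10, with a median log2 difference of 0.44 to 0.55. Without the replicate block, 37 rose and 10 fell (median 0.50), with the call of Eif4e3 lost (adjusted p = 0.0720 in limma) and those of Eif1b, Eif2s3y, Eif3d and Eif4h gained. On the deposited values 37 rose and 12 fell, these 4 genes among them. Median centring of the arrays gave a median of 0.63 and moved the median of all tested probes from -0.04 to 0.10, with 55.7% of all calls higher in place of 48.1%. Without a filter the median over all 71 probes was 0.30, as the probes detected on no array entered it.

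Counts of probes at least 1.5-fold from naive mice depended on the scaling. Median centring gave 7 in place of 4 in tolerant, 17 in place of 1 in early tolerant and 4 in place of 2 in rejecting CD69+ cells, and 4 in place of 0 in early tolerant CD69- cells. Quantile normalization without background correction and the deposited values, which gave the same results, found 0 in place of 1 in early tolerant CD69+ and in tolerant CD69- cells. The share of all tested probes was lower there too, at 3.46% in place of 8.54% and 2.32% in place of 6.37%. The cause was not tested.

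Leaving out a pair gave -0.41 (without the rejecting pair, adjusted p = 0.0862 in limma) to 0.52 for Eif4ebp1 and -0.0090 (without the tolerant pair) to 0.13 for Eif2ak1, neither of which had passed. Calls of Eif2ak2, Eif3a, Eif4e3, Eif4enif1 and Eif5 were lost without some pair. The identifiers printed in the non-normalized table, which name other probes, gave 0.075 for Eif2ak3, 0.50 for Eif2s3y, 0.44 for Eif3f, 0.26 for Eif3h, 0.16 for Eif4ebp2, -0.82 for Eif4e, 1.54 for Eif4g2, 0.090 for Eif5, -0.35 for Eif5a and -1.08 for Eif6, all of opposite sign. Folds of dim probes such as Eif4e, Eif3h and Eif2ak3 are limited by their signal over background.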
